A study of Mus musculus with 46 samples.

Results

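The data compared here were H3K36me3 ChIP-Seq peak lists from fibroblasts at day 0 of reprogramming (D0) and from induced pluripotent stem cells (iPSCs), which are 2 of the 46 samples of the series. They were taken as the only lists of this mark at the start and at the end of the conversion. D0 were mouse embryonic fibroblasts (MEFs) labelled day 0, where the labels do not say whether infection had already taken place, and the iPSCs were MEFs taken through infection with pMXs retroviruses for Oct4, Sox2, Klf4 and c-Myc until labelled fully reprogrammed, then kept in feeder-free medium. Both were precipitated with the same antibody, Abcam ab9050. Per the study's methods the MEFs carried an IRES-EGFP cassette at the Oct4 gene, which both states would then share. The other libraries used for comparison were H3K36me3 at day 3 (D3), in sorted Thy-1-negative cells at days 6 and 9 (D6T-, D9T-) and in sorted SSEA-1-positive cells at days 12 and 16 (D12S+, D16S+), H3.3 and H3K4me3 in D0 and iPSCs, and H3.3 in MEFs at day 0 of a transdifferentiation and in the embryonic stem cell line ESD3. Neither population was sorted, and each group had 1 library, so no difference could be set against a spread between replicates and no test was made. Intervals below are 95% Wilson intervals, which cover counting error only.

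H3K36me3 is trimethylated lysine 36 of histone H3. It is laid down over gene bodies by SETD2, which travels with elongating RNA polymerase II, so that the mark is known to cover transcribed genes and to be strongest towards their 3' ends. In cultured fibroblasts it is known on genes of the extracellular matrix and cytoskeleton, and it is read by proteins such as the DNA methyltransferases DNMT3A and DNMT3B. Promoters of active genes carry H3K4me3 instead, and the histone variant H3.3 is deposited in transcribed bodies and at regulatory elements.

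Before the genes were compared, the lists themselves had to be set side by side. Both libraries held a similar number of tags, 24.6 M in D0 and 24.3 M in iPSCs. In D0 31.3% of the tags lay in peaks, and in iPSCs 2.88% did. The D0 list had 57288 peaks covering 154 Mb, with a median length of 1087 bp and 2977 peaks longer than 10 kb. The iPSC list had 26697 peaks covering 19.6 Mb, with a median length of 500 bp, the shortest length called, and 3 peaks longer than 10 kb. The enrichment of the immunoprecipitation moved with the cell state, and the difference in state cannot be told apart from it. For this reason the counts of gene lists below are mostly given beside those of all genes. The fibroblast list is also read against a list of 30 housekeeping genes.

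The 2 lists nevertheless marked the same kind of place. Protein-coding genes held 91.2% of the covered bases in both states, while they make up 37.4% of the genome, and the midpoints of 87.5% of D0 peaks and 89.8% of iPSC peaks lay in them. Exons made up 17.9% of the covered gene bases in D0 and 19.9% in iPSCs, against 7.74% of all gene bases. Of the iPSC peaks 68.1% (67.6 to 68.7) shared at least 1 base with a D0 peak, and of the D0 peaks 19.4% (19.03 to 19.7) shared a base with an iPSC peak. Peaks of D0 that were shared had a median score of 84.3 tags per 10 M tags, against 12.8 for the others. The Jaccard index over bases was 0.0805, where the unequal totals allowed at most 0.127.

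For each of 18981 protein-coding genes of at least 2 kb, the percent of the gene length covered by peaks was computed. A gene was called covered at 20% or more and not covered under 5%. In D0 7040 genes were covered, and in iPSCs 992. By both limits 3436 genes were covered in D0 alone (D0-only, 18.1% of those tested), 69 in iPSCs alone (iPSC-only, 0.364%), and 884 in both (4.66%), while 9476 were covered in neither. At the limit, Lsm4 (20% in D0) was the last gene inside the D0-only class and Zfp456 (19.98%) the first outside, and BC030867 (20.1% in iPSCs) and Hes6 (19.6%) stood on either side of the iPSC-only limit. Of the D0-only genes 1784 (51.9%) had no covered base in iPSCs, and of the iPSC-only genes 62 (89.9%) had none in D0.

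The predominance of D0-only genes depended on how the lists were matched. When the D0 list was reduced to its top-scoring peaks with the same covered bases as iPSCs, the order turned, with 183 D0-only and 867 iPSC-only genes. This cut left 701 D0 peaks over 19.5 Mb, against 26682 iPSC peaks. The score counts the tags of a whole peak, so the cut kept long D0 peaks and few genes could be covered in D0. When instead a gene was called specific if it ranked among the 2000 best covered in one state and outside the 6000 best covered of the other, the classes were of similar size, with 317 D0-only genes (1.67%) and 334 iPSC-only genes (1.76%). This ranking was chosen after the lists had been seen. With an equal number of peaks (2947 D0-only and 103 iPSC-only genes), a fold of at least 6 (3030 and 25) or peaks at or above the median score (3907 and 73), D0-only genes stayed the larger class. The size of each class thus varied with the matching, and the account below is of which genes fell there.

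Fibroblast genes were mostly covered in D0 alone. Of 50 fibroblast and mesenchymal genes 37 were D0-only (74.0%, 60.4 to 84.1), none was iPSC-only, 4 were covered in both, and the median covered was 65.4% in D0 and 0% in iPSCs. Of all genes tested 18.1% were D0-only. By rank 18 of the 50 were D0-only and 0 iPSC-only, against 1.67% and 1.76% of all genes. Of the 30 housekeeping genes, which include Actb and Gapdh, 4 were D0-only (13.3%, 5.31 to 29.7), 0 were iPSC-only and 10 were covered in both, with medians of 58.0% and 15.3%. Both lists were well covered in D0, and in iPSCs 28 of 30 housekeeping genes but 10 of 50 fibroblast genes held any covered base. The contrast depended on the peaks used, since with peaks of at least 6-fold over input both lists were 60% D0-only, and with peaks at or above the median score 30% of the housekeeping genes were.

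**Figure D1:**
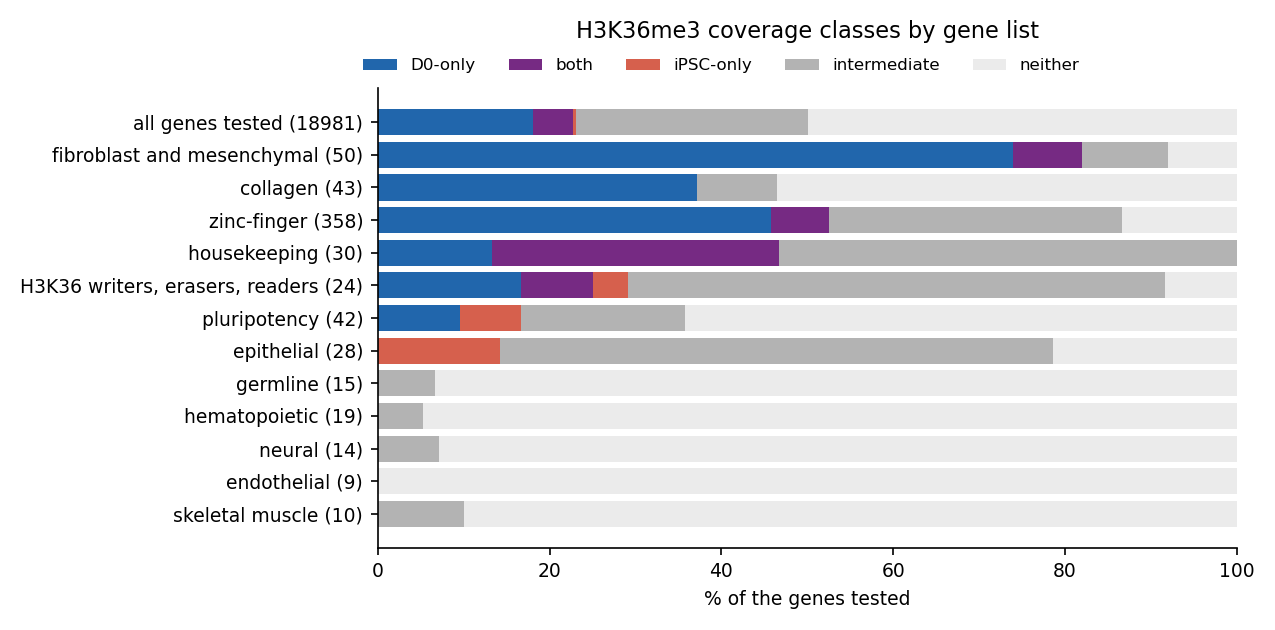
Each bar divides the tested genes of a list, with their number in brackets, into the coverage classes, as a percent of the list. The fibroblast and mesenchymal bar is 74.0% D0-only, the epithelial bar holds iPSC-only genes and no D0-only gene, and the pluripotency bar is mostly covered in neither state.

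Collagen genes were divided between those covered in D0 alone and those covered in neither state. Col1a1, which encodes a chain of type I collagen, lies on chromosome 11 (94797538 to 94814356, mm9) and was covered over 94.4% of its length in D0 and 0% in iPSCs. Col1a2, the other chain of type I collagen, was covered over 95.5% and 0%. Col3a1, the chain of type III collagen, was covered over 88.8% in D0 by 3 peaks, of which the longest was 31.2 kb, and was at 0% in iPSCs. In the whole family of 43 collagen genes 16 were D0-only (37.2%, 24.4 to 52.1), none was iPSC-only and 23 were covered in neither state (53.5%). Among all genes tested these shares were 18.1%, 0.364% and 49.9%, so the collagen share in neither state was near that of all genes. The D0-only members of the family included Col5a1 (78.5% in D0), Col5a2 (75.4%), Col6a1 (87.0%), Col6a2 (79.2%), Col6a3 (79.0%) and Col12a1 (95.5%), and 13 of the 16 had no covered base in iPSCs. The basement membrane collagen genes Col4a1 (40.3% and 2.3%) and Col4a2 (36.1% and 3.5%) also fell in this class, and they are neighbours that overlap in the annotation. The cartilage collagen genes were split. Col2a1, Col9a1 and Col11a2 were at 0% in both states, whereas Col11a1 and Col10a1 were D0-only, with 39 and 2 D0 peaks.

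Other D0-only members of the fibroblast list encode matrix proteins, surface receptors, cytoskeletal proteins and transcription factors. Fbn1, which encodes the microfibril protein fibrillin, was covered over 73.8% of its 207.4 kb, Lox, the collagen-crosslinking lysyl oxidase, over 86.4%, Postn, which encodes periostin, over 87.4%, and Mmp2, a matrix metalloproteinase, over 84.7%, each with 0% in iPSCs. Dcn, the proteoglycan decorin, was covered over 82.8% and 0%. Among receptors and surface proteins, the platelet-derived growth factor receptor gene Pdgfra was covered over 88.8% in D0 and 0% in iPSCs, Pdgfrb over 76.0% and 3.2%, and Thy1, whose product was used to sort the intermediate cells of the series, over 36.4% and 0%. Of the cytoskeletal genes, Vim (vimentin) was covered over 83.02%, Acta2 (smooth muscle actin) over 81.5% and Tagln (transgelin) over 49.5%, each with 0% in iPSCs. Of the transcription factor genes of the mesenchymal programme, Snai1 was at 64.5%, Prrx1 at 60.02%, Snai2 at 52.4%, Zeb1 at 39.9%, Zeb2 at 35.0% and Runx1 at 33.8% in D0. These values overlapped those of the other groups, where Tagln and Thy1 were below Snai1, Prrx1 and Snai2.

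The other 13 genes of this list were 4 covered in both states, 4 covered in neither and 5 in between. Sparc (89.4% in D0 and 21.7% in iPSCs), Tpm1 (88.3% and 31.0%), Thbs1 (94.5% and 20.7%) and Cyr61 (77.5% and 21.03%) were covered in both states. The 5 in between were Fn1, which encodes fibronectin (97.0% in D0 and 5.4% in iPSCs), Runx2 (19.5% and 0.5%), Cnn1 (18.0% and 0%), Twist2 (9.6% and 0%) and Cdh2 (8.6% and 0%). Fap was at 2.7% in D0 and 0% in iPSCs. Twist1, Ctgf and S100a4, short genes of 2.1 to 3.2 kb, had no covered base in either state, although D0 H3.3 peaks covered 100% of Ctgf and S100a4 and 23.3% of Twist1. A gene body at 0% was therefore not always a gene body without H3.3.

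**Figure D2:**
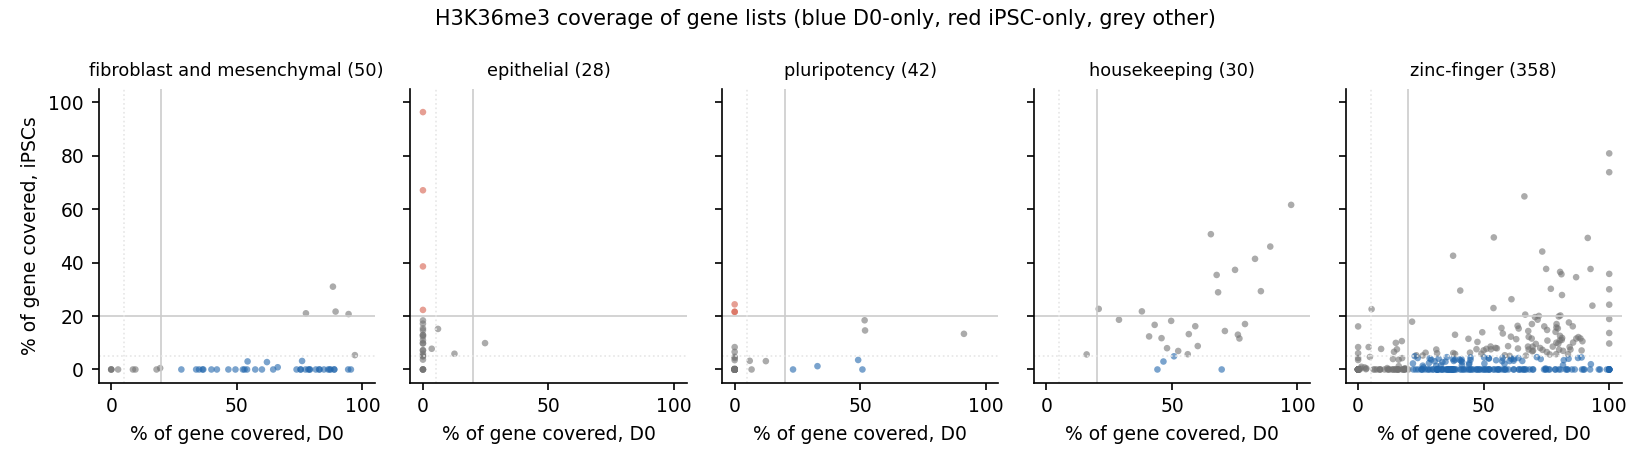
Each point is a gene, placed by the percent of its length covered in D0 (horizontal) and in iPSCs (vertical); grey lines mark the limits of 20% and 5%. Fibroblast genes lie along the D0 axis, epithelial genes along the iPSC axis up to Krt18 at 96.4%, and housekeeping genes rise in both.

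Epithelial genes formed the opposite group. The conversion of fibroblasts to iPSCs includes a mesenchymal-to-epithelial transition, in which junction and keratin genes are switched on. Of 28 epithelial genes 4 were iPSC-only (14.3%, 5.70 to 31.5), 0 were D0-only, and 24 held covered bases in iPSCs (85.7%, 68.5 to 94.3) against 4 in D0 (14.3%). Among all genes 39% held covered bases in iPSCs and 55.5% in D0, and 0.364% were iPSC-only and 18.1% D0-only. By rank 11 of the 28 were iPSC-only (39.3%), against 1.76% of all genes.

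The keratin pair Krt8 and Krt18, intermediate filament genes of simple epithelia, carried the mark most fully. Krt18 (chromosome 15, 101858647 to 101862457, plus strand) was covered over 96.4% of its 3.8 kb in iPSCs by a single peak of 4.4 kb that ran 0.77 kb past the gene end, and had no covered base in D0. Krt8 (chromosome 15, 101827142 to 101834773, minus strand) was covered over 67.1% in iPSCs by 3 peaks and over 0% in D0. Cldn6, a tight junction claudin, was covered over 38.6% and Epcam, an epithelial adhesion molecule, over 22.3%, both with 0% in D0. Below the limit of 20%, Llgl2 (18.4%), Krt19 (17.2%), Spint2 (15.4%), Tjp3 (15.2%), Crb3 (14.7%) and Dsp (12.9%) were covered in iPSCs, with 0% in D0 except for Tjp3 at 6.0%. Cdh1, which encodes E-cadherin, was covered over 10.9% of its 66.9 kb in iPSCs and 0% in D0. Ocln, Ovol1, Rab25 and Marveld3 had no covered base in either state.

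Pluripotency genes followed the epithelial genes only in part. Of 42 tested, 3 were iPSC-only (7.14%, 2.46 to 19.01), 4 were D0-only (9.52%) and 27 were covered in neither state (64.3%). Among all genes these shares were 0.364%, 18.1% and 49.9%. In iPSCs 16 held any covered base (38.1%, 25 to 53.2), close to the 39% of all genes. In D0 10 did (23.8%), against 55.5% of all genes. By rank 3 were iPSC-only and 0 D0-only, against 1.76% and 1.67% of all genes. The iPSC-only members were Dnmt3b (24.4%), a de novo DNA methyltransferase that itself binds the mark, Mybl2 (21.6%), a cell cycle transcription factor, and Sall4 (21.6%), a zinc-finger factor of the pluripotency network, and each had 0% in D0. Zfp42, the marker known as Rex1, was covered over 8.4%, Dnmt3l over 6.6% and Dppa4 over 4.7% in iPSCs, with 0% in D0.

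Several core pluripotency genes carried no H3K36me3 peak in the library labelled iPSCs, although 16 of the 42 genes listed held a covered base there. Pou5f1 (Oct4), Nanog, Sox2, Lin28a, Tdgf1, Fgf4 and Klf2 were at 0% in both states, and Klf4 was at 23.2% in D0 and 0% in iPSCs. The same cells' other libraries did mark them. In iPSCs H3.3 peaks covered 100% of Nanog, 100% of Pou5f1, 82.9% of Lin28a, 71.6% of Tdgf1 and 63.9% of Sox2, and each of these genes had an H3K4me3 peak within 1 kb of its start. In D0, H3.3 covered 0% of Nanog, Pou5f1, Lin28a and Tdgf1, and 31.7% of Sox2. Over the list, H3.3 covered 31 of 42 genes at 20% or more in iPSCs and 3 in D0, an H3K4me3 peak stood at the start of 38 in iPSCs and 26 in D0, and H3K36me3 covered 3 in iPSCs and 7 in D0. Nanog, Pou5f1, Lin28a, Tdgf1 and Sox2 were thus marked in the H3.3 and H3K4me3 lists of these cells and absent from the H3K36me3 list. The part of the low enrichment of the iPSC library in this was not tested.

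The 4 D0-only genes of the pluripotency list were Zfp57 (50.9%), an imprint-maintaining zinc-finger factor, Tbx3 (49.2% and 3.6% in iPSCs), a T-box factor, Tet2 (32.97% and 1.2%), a 5-methylcytosine dioxygenase, and Klf4. Lists of other lineages were counted too, with 19 hematopoietic, 9 endothelial, 14 neural, 10 skeletal muscle and 15 germline genes tested. In these lists none was D0-only, iPSC-only or covered in both, against 18.1%, 0.364% and 4.66% of all genes. At so low a share of iPSC-only genes, their absence from lists this short says little. In the same order 2, 3, 0, 1 and 1 held any covered base in iPSCs, and 2, 0, 2, 1 and 2 in D0. Among all genes 39% held any covered base in iPSCs and 55.5% in D0. Only 5.23% of all genes reached 20% in iPSCs, and Pou5f1 and Nanog were at 0% there. The iPSC counts therefore cannot show whether other cell types were present. Ptprc, Pecam1, Cdh5, Kdr, Myod1, Ddx4 and Dazl were at 0% in D0, and in iPSCs the largest value among these 7 was 1.2% (Cdh5).

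Among the enzymes and readers of H3K36 methylation themselves, 4 of 24 were D0-only (16.7%, 6.68 to 35.9), near the 18.1% of all genes, and 1, Dnmt3b, was iPSC-only. The D0-only members were the long genes Kdm4c (39.7% and 2.1%), a demethylase, Whsc1l1 (50.0% and 4.7%), the methyltransferase NSD3, and Zmynd11 (21.4% and 0.9%), a reader of the mark on H3.3, and the shorter Phf1 (34.8% and 0%), a Polycomb-associated reader. Setd2, which encodes the enzyme that lays down the mark, was covered over 70.7% in D0 and 12.9% in iPSCs and so fell in neither class. The pair of de novo methyltransferases split, with Dnmt3a at 17.2% in D0 and 0.6% in iPSCs and Dnmt3b at 0% and 24.4%.

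Zinc-finger genes of the Zfp families, the longest list, held the most D0-only genes, though at a smaller share than the fibroblast list (74.0%). Of 358 tested, 164 were D0-only (45.8%, 40.7 to 51.0), 24 were covered in both and none was iPSC-only, with medians of 45.5% in D0 and 0.05% in iPSCs. Over all genes 18.1% were D0-only. By rank 33 zinc-finger genes were D0-only (9.22%, against 1.67% of all genes) and 3 iPSC-only. Zfp genes are known to lie partly in clusters of related copies, and chromosomes 7, 17 and 13 held 43 of 86, 29 of 43 and 20 of 34 D0-only members. Zfp780b, for example, was covered over 99.1% in D0 and 0% in iPSCs. Some were covered in both states, and Zfp445 (100% in D0 and 80.9% in iPSCs) and Zfp930 (100% and 73.8%) were the best covered of them in iPSCs.

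The zinc-finger and fibroblast genes can be set side by side in the H3.3 and intermediate libraries, which had no part in calling the classes. Among the 37 D0-only fibroblast genes, H3.3 in D0 covered a median of 61.6% of the gene and 29 genes at 20% or more. Among the 164 D0-only zinc-finger genes, H3.3 in D0 covered a median of 3.12%, 36 genes at 20% or more and 69 not at all. At day 9 in the Thy-1-negative cells (D9T-), H3K36me3 covered 151 of these 164 zinc-finger genes at 20% or more and 14 of the 37 fibroblast genes, with medians of 53.3% and 6.46%. Over all D0-only genes the H3.3 median in D0 was 13.0%, and 82.1% were covered at 20% or more in D9T-. The zinc-finger genes were therefore near their class in D9T- and below its H3.3 median, and the fibroblast genes were above the H3.3 median and below the class in D9T-.

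The 10 D0-only genes with the largest difference, among genes of at least 10 kb that overlap no other protein-coding gene, were Tnc, AU041133, Zfp780b, Col12a1, Col1a2, Osmr, Slc38a2, Eif2ak2, Tubgcp5 and Zfp369. Tnc, which encodes the matrix glycoprotein tenascin-C, was covered in full by a single D0 peak of 65.0 kb and had no covered base in iPSCs. Osmr, the oncostatin M receptor gene, was covered over 95.4% and 0%, and Eif2ak2, the interferon-induced kinase PKR, over 94.9% and 1.7%. Slc38a2, an amino acid transporter gene, was covered over 93.4% and 0%, although H3.3 covered 79.7% of it in D0 and 82.9% in iPSCs. In these 10 genes D0 coverage within the gene began between 0% and 7.31% of the way in, and the peaks ran 0.241 to 7.52 kb past the gene end. A peak that began before the gene start, as at Tnc and AU041133, counts as 0%.

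The corresponding 10 iPSC-only genes were Rbm38, Tinagl1, Mpzl2, Nek2, Lama5, AU018091, Gm2a, Dnmt3b, Arhgef16 and Epcam. Coverage here came from 3 to 17 short peaks a gene, which did not pass the gene end in any of them. Rbm38, an RNA-binding protein gene, was covered over 35.8% in iPSCs and 0% in D0, Mpzl2, an epithelial adhesion gene, over 31.7% and 0%, and Nek2, a mitotic kinase gene, over 32.7% and 4.3%. Lama5, the laminin alpha-5 chain of epithelial basement membranes, was covered over 29.8% of its 49.5 kb by 17 peaks and over 4.0% in D0. Dnmt3b was covered by 10 peaks between 10.48% and 85.1% of the way along its 38.3 kb. These 20 genes were chosen by their coverage, and over the whole classes the median was 43.3% of the gene length in D0 for D0-only genes and 23.4% in iPSCs for iPSC-only genes.

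**Figure D3:**
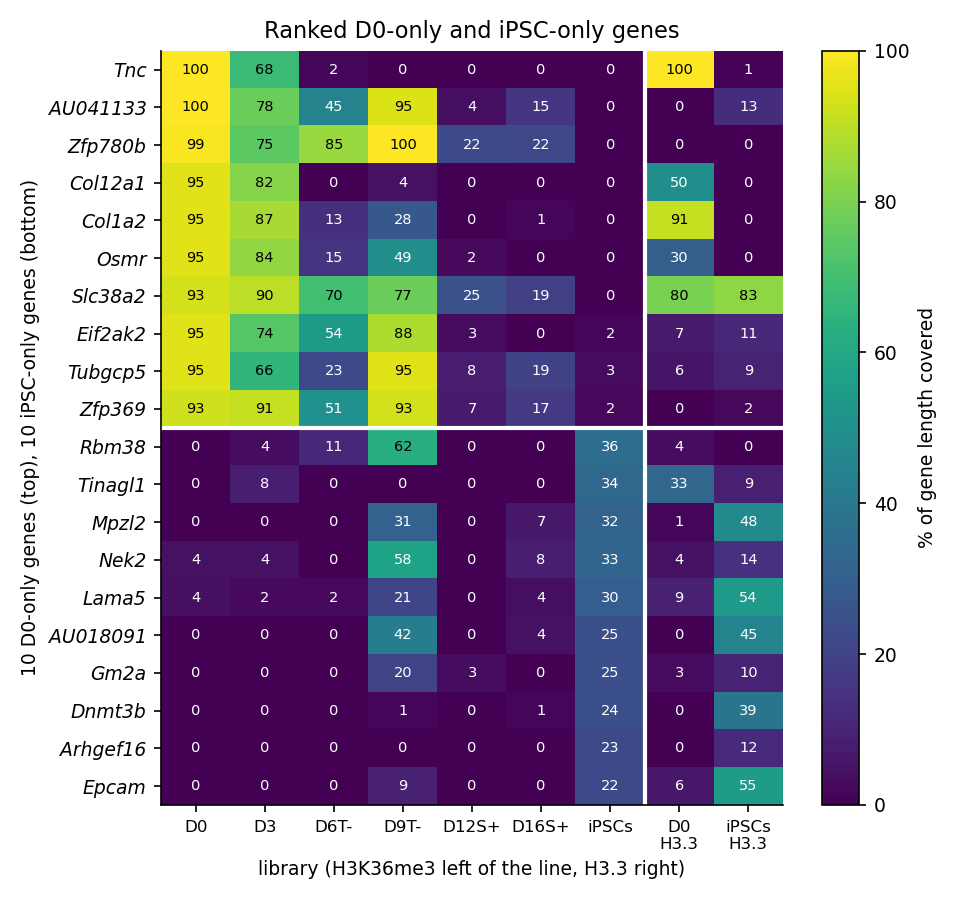
Each row is one of the 10 D0-only (top) or 10 iPSC-only (bottom) genes, each column a library, and each cell the percent of the gene length covered, on a scale from 0 to 100. Tnc and Col12a1 are at 4.45% or less in the D6T- and D9T- H3K36me3 libraries, whereas Zfp780b and AU041133 are at 44.9% or more there, and Rbm38 and Nek2 are at 62.2% and 58.0% in D9T-.

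The same 20 genes in the intermediate libraries showed no single order of change. Tnc fell from 100% in D0 to 68.0% at day 3 and 1.6% in D6T-, and was at 0% in D9T-, D12S+ and D16S+. Col12a1 was at 95.5%, 82.0%, 0%, 4.45%, 0% and 0% over the same libraries. AU041133 and Zfp780b were still at 94.7% and 100% in D9T-. Rbm38 was at 3.5% at day 3, 11.1% in D6T- and 62.2% in D9T-, and at 0% in D12S+ and D16S+, before 35.8% in iPSCs. Over the classes, the share of D0-only genes covered at 20% or more was 46.7% at day 3, 23.5% and 82.1% in the Thy-1-negative cells of days 6 and 9, and 0.524% and 1.14% in the SSEA-1-positive cells of days 12 and 16. For iPSC-only genes the shares were 4.35%, 7.25%, 36.2%, 0% and 0%. The share of tags in peaks was 14.1%, 7.5%, 42.4%, 1.07% and 1.99% in the same libraries, which is the same order of libraries as for the D0-only shares, whereas the iPSC-only share was higher in D6T- than at day 3. The part of enrichment in these shares was not tested.

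Within D9T-, the library with the highest share of tags in peaks, lists can still be compared with each other. Housekeeping genes were covered at 20% or more in 27 of 30 cases, fibroblast genes in 18 of 50, collagen genes in 6 of 43, pluripotency genes in 12 of 42 and epithelial genes in 4 of 28. Among all genes 40.7% were covered there. In D0 the counts were 29, 42, 16, 7 and 1, against 37.1% of all genes. Krt8 was at 23.6% and Dsp at 58.8% in D9T-, while Krt18, Cldn6 and Cdh1 were at 0%.

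The H3.3 libraries followed the classes at the level of medians. D0-only genes were covered by H3.3 over a median of 13.0% in D0 and 6.43% in iPSCs, and iPSC-only genes over 7.25% and 28.1%, against 4.42% and 3.55% for all genes tested. The separate fibroblast and embryonic stem cell libraries gave the same order, with MEF H3.3 at 3.17% and ESD3 H3.3 at 1.84% of D0-only genes, and at 1.02% and 7.68% of iPSC-only genes. Start sites did not separate the classes. An H3K4me3 peak lay within 1 kb of the start of 93.7% of D0-only genes in D0 and 90.5% in iPSCs, and of 91.3% and 94.2% of iPSC-only genes.

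The length of the genes called covered also differed between the lists. The median length was 25.6 kb for D0-only genes, 12.0 kb for genes covered in both and 4.39 kb for iPSC-only genes, against 20.7 kb for all tested. In D0 the share of genes covered rose from 22.7% at 2 to 5 kb to 46.5% at 20 to 50 kb, and was 20.2% above 100 kb. In iPSCs it was 8.33% at 2 to 5 kb, 8.21% at 10 to 20 kb, 1.07% at 50 to 100 kb and 0.208% above 100 kb. The limit is a percent of the gene length, so a single short peak can be enough in a short gene and not in a long one. The median iPSC peak was 500 bp long and the longest 13.6 kb, against a longest peak of 96.9 kb in D0. The part of the state in these shares therefore cannot be told apart from that of peak length. Of the 69 iPSC-only genes 38 were shorter than 5 kb. Gadd45b (64.4%), a stress-response gene of 2.1 kb, Pole3 (64.3%), a DNA polymerase epsilon subunit of 2.4 kb, and Atp6v0b (53.4%), a proton pump subunit of 3.0 kb, are of this kind.

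**Figure D4:**
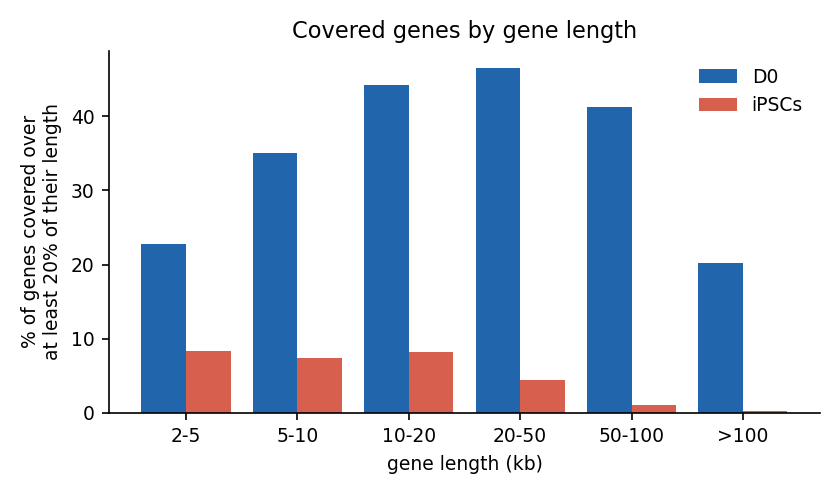
Bars give the percent of genes in each length class (kb) covered over at least 20% of their length, in D0 (blue) and iPSCs (red). D0 reaches 46.5% at 20 to 50 kb, and iPSCs fall to 0.208% above 100 kb.

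Along the gene coverage was low at the start in both states and differed in shape towards the end. Profiles were taken over 4921 genes of at least 10 kb with no other protein-coding gene within 10 kb, in 20 equal bins. In D0 mean coverage rose from 1.49% in the first bin to 25.5% in the last, was 21.2% in the first kb past the end and had fallen to 4.49% by the fifth kb. In iPSCs it rose from 0.588% in the first bin to a highest value of 2.84% at 75 to 80% of the gene, and stood at 2.15% in the last bin. The last 5 bins of the gene held 38.3% of the covered gene bases in D0 and 31.4% in iPSCs, and the first 5 bins 13.3% and 18.6%. Both states left the first kb before the start nearly free, at 0.221% and 0.086%.

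Genes covered in both states showed the difference at higher coverage. In these 104 genes D0 coverage was 83.3% in the middle and 86.6% in the last bin, with a highest value of 92.6%. In iPSCs it was 39.6% in the middle, 20.8% in the last bin and 14.9% in the first kb past the end. The last 5 bins held 33.9% of the covered bases in D0 and 26.2% in iPSCs. For the 844 D0-only genes with a profile, D0 coverage rose to 70.3% at 90 to 95% of the gene and was 56.5% in the first kb past the end. Only 8 iPSC-only genes met the conditions, too few for a profile. Whether the flatter iPSC profile moved with the short peaks of that library was not tested beyond the alternatives given in the closing section.

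**Figure D5:**
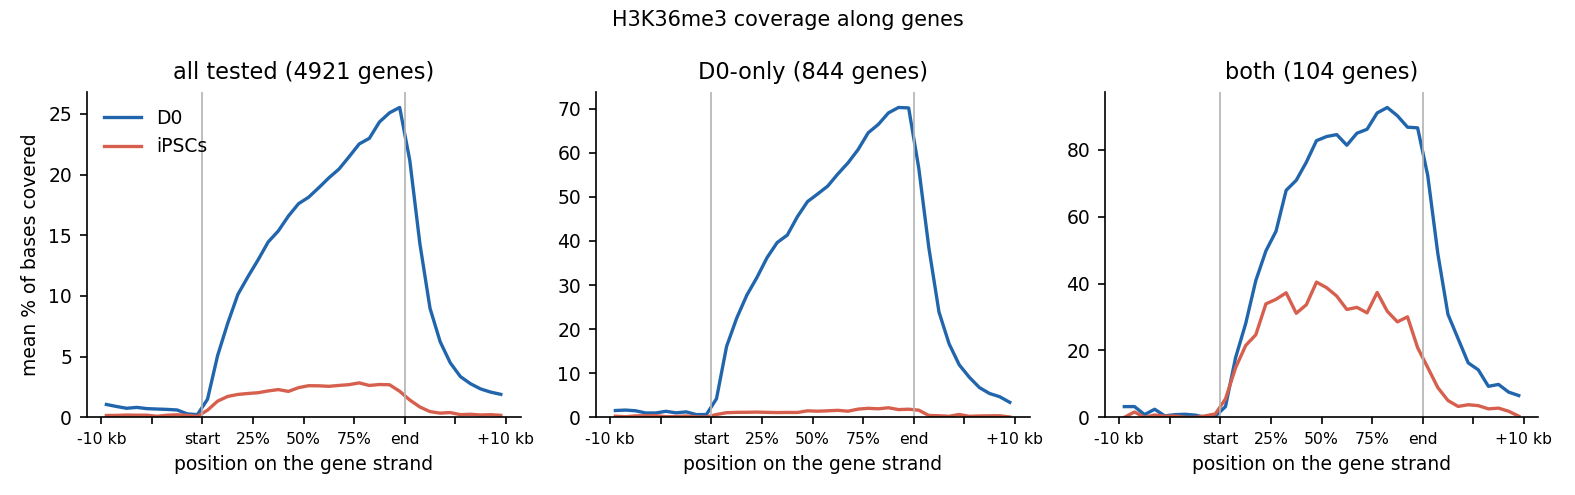
Lines give the mean percent of bases covered in D0 (blue) and iPSCs (red) from 10 kb before the gene start, through 20 equal bins of the gene, to 10 kb past its end, with a scale of its own for each panel. In genes covered in both states D0 peaks at 92.6% near the end and iPSCs at 40.4% in the middle.

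Outside genes, peaks closer than 3 kb were joined to domains, and domains with no base in any annotated gene or within 1 kb of one were called intergenic. D0 had 3098 intergenic domains, 11.1% (10.7 to 11.4) of all its domains, and iPSCs 1584, 8.64% (8.24 to 9.05). They held 2.10% of the covered bases in D0 and 4.97% in iPSCs. Of the D0 domains 2928 (94.5%) shared no base with an iPSC peak, and of the iPSC domains 1257 (79.4%) shared none with a D0 peak. Median lengths over all intergenic domains were 0.627 kb and 0.500 kb, and 17 D0-specific domains but 1 iPSC-specific domain were 10 kb or longer.

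Intergenic domains of the states differed in what lay on them. An H3.3 peak of the same state overlapped 398 of the 1257 iPSC-specific domains (31.7%) and 275 of the 2928 D0-specific domains (9.39%), and an H3K4me3 peak overlapped 69 (5.49%) and 39 (1.33%). Of all H3K36me3 peaks, counted before joining, H3.3 overlapped 33.5% in iPSCs and 32.1% in D0, and H3K4me3 10.8% and 6.33%. For H3.3 the iPSC domains were thus near their whole list and the D0 domains below theirs. For H3K4me3 both were below. Within 10 kb past the end of the nearest gene lay 16.7% of the D0-specific and 16.1% of the iPSC-specific domains, and within 10 kb before a start 10.8% and 16.1%. More than 50 kb from any protein-coding gene lay 38.1% and 26.3%. The nearest gene was itself D0-only for 27.6% of the D0-specific and 17.9% of the iPSC-specific domains. Of all genes tested 18.1% were D0-only.

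The 5 longest D0-specific domains spanned 17.8 to 24.6 kb. The longest, chr17:17320885-17345526, held 3 peaks that covered 20.8 kb and lay 37.1 kb past the end of Zfp97, and it was also covered over 58.1% at day 3 and 94.2% in D9T-. The next, chr10:81857761-81878262, lay 13.8 kb past the end of Gm4924, which was covered over 100% in D0. Another, chr10:82910705-82930286, lay 19.9 kb past the end of Aldh1l2, a folate enzyme gene, and was covered over 95.7% in D9T-. A further one, chr3:145317720-145335969, lay 4.8 kb before the start of Cyr61, a matricellular gene covered in both states, and D0 H3.3 covered 41.7% of it. The last, chr7:46810754-46828539, lay 15.0 kb past the end of Zfp619, itself D0-only at 29.7%.

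The iPSC-specific domains were shorter. The longest, chr8:28322176-28332523, spanned 10.3 kb with 3 peaks and lay 3.7 kb past the end of Adrb3, the beta-3 adrenergic receptor gene, which itself had no covered base in either state, and iPSC H3.3 covered 29.9% of it. The other 4 spanned 3.7 to 4.8 kb and lay past the ends of Rgs22, Slc18a1, S100a11 and Rab2b, and each was overlapped by an iPSC H3.3 peak, which covered 100% of the domain at Slc18a1. None of these 4 had a covered base in the intermediate H3K36me3 libraries.

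The sequence at a high-scoring state-specific intergenic peak of each state is shown. The pair was kept because the D0 peak, far from its nearest gene, holds a regular repeat that the iPSC peak does not. A chromosome was left out when the peaks were picked, so each was the highest-scoring only among the chromosomes searched. The D0 peak, chr17:95211818-95224261, had a score of 690.6 tags per 10 M tags, a fold of 9.31 over input, and lay 47.6 kb before the start of 2610044O15Rik, a D0-only gene (36.7%). The iPSC peak, chr8:28322176-28326603, is the first part of the domain near Adrb3 and had a score of 70.4 and a fold of 4.05. The 300 bases at the centre of each peak follow, from the plus strand of mm9 (chr17:95217890-95218189 and chr8:28324240-28324539), in lower case with the letters TTCTCTCCAG in capitals.
D0 intergenic peak: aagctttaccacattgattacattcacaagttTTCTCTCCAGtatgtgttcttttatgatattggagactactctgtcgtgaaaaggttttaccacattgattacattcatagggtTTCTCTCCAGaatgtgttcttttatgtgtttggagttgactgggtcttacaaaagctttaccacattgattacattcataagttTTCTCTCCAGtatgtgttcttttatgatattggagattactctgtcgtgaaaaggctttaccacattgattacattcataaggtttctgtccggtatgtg
iPSC intergenic peak: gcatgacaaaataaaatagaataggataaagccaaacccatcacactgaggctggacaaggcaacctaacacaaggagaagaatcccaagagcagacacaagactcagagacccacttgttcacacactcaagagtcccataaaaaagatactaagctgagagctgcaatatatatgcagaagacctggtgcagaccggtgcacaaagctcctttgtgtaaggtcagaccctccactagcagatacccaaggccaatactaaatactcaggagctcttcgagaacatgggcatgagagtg

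The D0 sequence repeated itself every 84 bases, the length of a finger with its linker in C2H2 zinc-finger genes, with 83.3% of bases identical at that shift. The capital letters occurred 3 times in the window, 84 bases apart, and 14 times in the whole 12.4 kb peak, in each case on the plus strand. They occurred nowhere in the iPSC peak, whose best shift gave 35.3% identity. Searched on both strands in the central 300 bases, the letters were found in 28 of 4515 D0-specific intergenic peaks (0.620%, 0.429 to 0.895) and 4 of 1370 iPSC-specific ones (0.292%, 0.114 to 0.748). Among the 100 highest-scoring of each they were found in 9 and 0. The order was the other way in state-specific peaks that were not intergenic. There 136 of 41633 D0 peaks (0.327%) and 30 of 7133 iPSC peaks (0.421%) held the letters. The letters were chosen after the D0 sequence had been read, so the counts describe how far the example goes and are not a test.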

How the data were processed

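Per the study's methods, reads were mapped to mm9 with STAR, those with too many mismatches or several loci were dropped, and peaks were called by HOMER findPeaks in histone style for each library against an input library. In the deposited lists the score is a signal, the normalized tag count per 10 M tags, and the fold over input is a ratio of at least 4, with a Poisson p-value limit of 0.0001 per the file headers. Tool versions are not given in the sources used here. No column of per-sample values was left out.

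From these lists, base coverage was computed with Python 3.11.15 (numpy 2.4.6, pandas 2.3.3) on GENCODE vM1 genes of the same build, checked on simulated intervals, and classes were formed as described. H3.3 lists used a fold of at least 2. Older symbols were matched through RefSeq synonyms. No test was made with 1 library a group. The members, lists and alternatives were chosen with earlier results of these data known. Genes named were list members in a state-specific class with up to 4 others or, where counts needed it, a few more seen afterwards, and the 10 ranked genes and 5 longest domains of each state. Peaks on unplaced sequences were left out of positions.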

Additional observations from a re-analysis of the deposited data

How the results depend on the processing

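No paired analysis was possible because each group had 1 library and the results come from no test. A share or median was called moved when outside the 95% interval of its main value over peaks or genes, and a count when beyond 1.5 times. When the 26682 best-scoring peaks of each state were used, D0-specific intergenic domains were 449, 34.6% of D0 peaks overlapped an iPSC peak and 61.4% the reverse. With equal covered bases, D0-only genes were 183 and iPSC-only 867, the fibroblast share D0-only 24.0%, D0 H3.3 over D0-only genes 24.2%, the share of D0 bases in the last 5 bins 41.2%, D0-specific domains 1, and overlaps 88.9% and 11.3%. With a fold of at least 6, iPSC-only genes were 25, the fibroblast share 60%, the epithelial share iPSC-only 3.57%, H3.3 medians 27.4% and 45.6%, the share in the last 5 bins 40.6%, domains 1166 and 360, and overlaps 7.42% and 31.4%. With peaks at or above the median score, the D0 H3.3 median was 15.0%, domains 563 and 390, and overlaps 22.0% and 71.8%. With limits of 10% and 0%, iPSC-only genes were 160 and the epithelial share 42.9%. With 50%, D0-only genes were 1324, iPSC-only 7 and the fibroblast share 56.0%. By rank, they were 317, 334 and 36%, with an epithelial share of 39.3%. A 10 kb margin gave 1948 and 753 domains. The share of housekeeping genes D0-only ranged up to 60% (fold of at least 6), and that of zinc-finger genes from 2.79% (equal covered bases) to 54.2%. In none of the alternatives run was an epithelial gene D0-only, and fibroblast genes were iPSC-only only with equal covered bases (2 of 50). The other 43 values of these main results moved less. Peak length and enrichment of the iPSC library limit every count of genes covered there.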

Other observations

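Several of 25 trophoblast-associated genes, a list picked after values were seen, were covered in iPSCs alone (8 of 25, and 0 in D0 alone, against 0.364% and 18.1% of all genes). Of the 8, Krt8 and Krt18 also belong to the epithelial list. Tcfap2c, which encodes the AP-2 gamma factor of trophoblast and germ cell development, was covered over 57.9% in iPSCs and 0% in D0, Elf3, an epithelial ETS factor gene, over 52.8% and 0%, Hand1, a bHLH gene of trophoblast and heart, over 23.0% and 0%, Krt7 over 20.96% and 0%, and the trophoblast-associated connexin gene Gjb5 over 23.1% and 0%. Gata2 (21.8% in iPSCs and 6.3% in D0) and Eomes (12.6% and 0%) were near or under the limit. Cdx2, Ascl2, Plac1 and Esx1, which are also known in trophoblast, had no covered base in either state, and Elf5 was covered over 1.3% in iPSCs. The iPSC H3.3 library covered 2.3% of Tcfap2c, 47.8% of Elf3, 2.4% of Hand1 and 0% of Krt7 and Gjb5.

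Chromosome X had 98 iPSC peaks, 0.367% of the list (0.301 to 0.447), and 3.09% of the D0 list. Of its 777 tested genes 7.08% held any covered base in iPSCs, against 39% of all genes, and 21.2% were covered at 20% or more in D0, against 37.1%. None was iPSC-only, where 0.364% of all genes were. For H3K4me3, chromosome X held 2.25% of the covered bases in D0 and 2.20% in iPSCs. For H3.3 it held 0.376% in D0, 0.613% in iPSCs, 0.542% in MEF and 0.505% in ESD3. Chromosome X held 2.16% of the bases covered by H3K36me3 at day 0, 1.40% at day 3, 0.743% and 2.21% in the Thy-1-negative cells of days 6 and 9, 0.293% and 0.629% in the SSEA-1-positive cells of days 12 and 16, and 0.338% in iPSCs. Over these libraries the portion of tags in peaks was highest in D9T- and D0 and lowest in D12S+, and its part in the chromosome X share was not tested.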
